A study of Mus musculus with 6 samples.

Results

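The enzymes, receptors and kinases of cyclic nucleotide signalling were described in mouse testis through 55 of the 24411 genes measured. Members were taken by a rule on gene symbols, set with earlier results of these data known: the adenylyl cyclases (Adcy, 10 genes), the guanylyl cyclases and natriuretic peptide receptors (Gucy and Npr, 12), the genes with a phosphodiesterase symbol (Pde, 25), the catalytic (Prkaca and Prkacb, 2) and regulatory (Prkar, 4) subunits of the cAMP-dependent kinase PKA, and the cGMP-dependent kinases PKG (Prkg, 2). Pde12 entered by its symbol but encodes an enzyme that breaks down oligoadenylates and poly(A) tails rather than cyclic nucleotides. Pde4dip, a scaffold protein named after its partner, was left out. All 55 symbols were found in the files and in the RefSeq gene table for GRCm38.p6, 2 of them (Gucy1a3 and Gucy1b3) under newer symbols.

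Cyclases make the second messengers cAMP and cGMP, phosphodiesterases break them down, and PKA and PKG phosphorylate other proteins when the messengers bind. In sperm the soluble adenylyl cyclase Adcy10 is activated by bicarbonate and calcium, and the cAMP it makes acts through PKA on motility and capacitation. In the somatic cells of the testis, cAMP made by membrane cyclases carries the signals of luteinizing hormone to Leydig cells and of follicle-stimulating hormone to Sertoli cells. MRP5 is a membrane transporter of the ABCC family known to export cyclic nucleotides, and MRP9 is a related protein of testis and sperm.

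RNA was sequenced from whole testes of age-matched C57BL/6 mice, an inbred laboratory strain. There were 3 libraries with the genotype MRP5-/- and MRP9-/- (labelled DKO here) and 3 with the genotype Wildtype (labelled WT). The labels do not give the age, the design of the alleles, or the background on which they were bred. RefSeq lists MRP5 and MRP9 as synonyms of Abcc5 and Abcc12. The study's title concerns male reproduction and mitochondrial function, and the comparison made here is how cyclic nucleotide genes differ between the genotypes.

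The libraries labelled DKO held 42673615 to 67131103 expected counts and those labelled WT 26753721 to 31745969. The mean fragment length recovered from the files was 275 to 317 bases and 230 to 258 bases, so neither depth nor fragment length overlapped between the groups. Abcc12 was lower in libraries labelled DKO (79.0 against 160 CPM on average; edgeR adjusted p = 0.000307; log2 fold change -1.02). Abcc5 was not lower there, with 16.8 CPM on average against 11.4 (edgeR adjusted p = 0.0225; log2 fold change 0.56). CPM here is a gene's count divided by its library's TMM-scaled total. Gene-level values cannot show a missing exon, and the groups are named by their labels throughout. Of 17110 genes tested with edgeR, 1856 (10.8%) passed an adjusted p under 0.05, 984 of them higher (5.75%) and 872 lower (5.1%) in libraries labelled DKO. Whole testis was sequenced, so fewer cells of a type and less RNA per cell cannot be told apart in any difference below.

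A few genes carried most of the measured transcript. Levels are given as TPM, a share of all transcripts that is scaled by transcript length and can be set side by side between genes. Of the 55 members, 12 had a mean of at least 10 TPM over the 6 libraries, 21 lay from 1 to under 10, and 22 lay under 1. The summed level of all members was 1120, 1062 and 1097 TPM in the 3 libraries labelled DKO and 1015, 1008 and 1026 TPM in the 3 labelled WT. All 3 sums labelled DKO lay above all 3 labelled WT. The sums mostly reflect the few abundant genes: of 49 tested members, 25 had a log2 fold change above 0 and 24 below 0. Single genes did not overlap between the groups, in CPM, for 35.9% of all genes tested.

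In each role 1 or a few genes accounted for most of the TPM. Adcy10 made up 85.9% of adenylyl cyclase TPM on average, from 82.0% to 88.4% across libraries. Npr1, the atrial natriuretic peptide receptor with guanylyl cyclase activity, made up 75.8% of its group. Prkaca made up 94.9% of the catalytic subunits of PKA, and Prkg1 99.6% of PKG. The genes with a phosphodiesterase symbol were shared out more widely: Pde1a made up 32.2%, Pde8a 23.1%, Pde6d 14.5% and Pde1c 10.4% of their summed TPM. The calcium-activated Pde1a and Pde1c hydrolyse both cAMP and cGMP, and Pde8a is selective for cAMP.

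**Figure D1:**
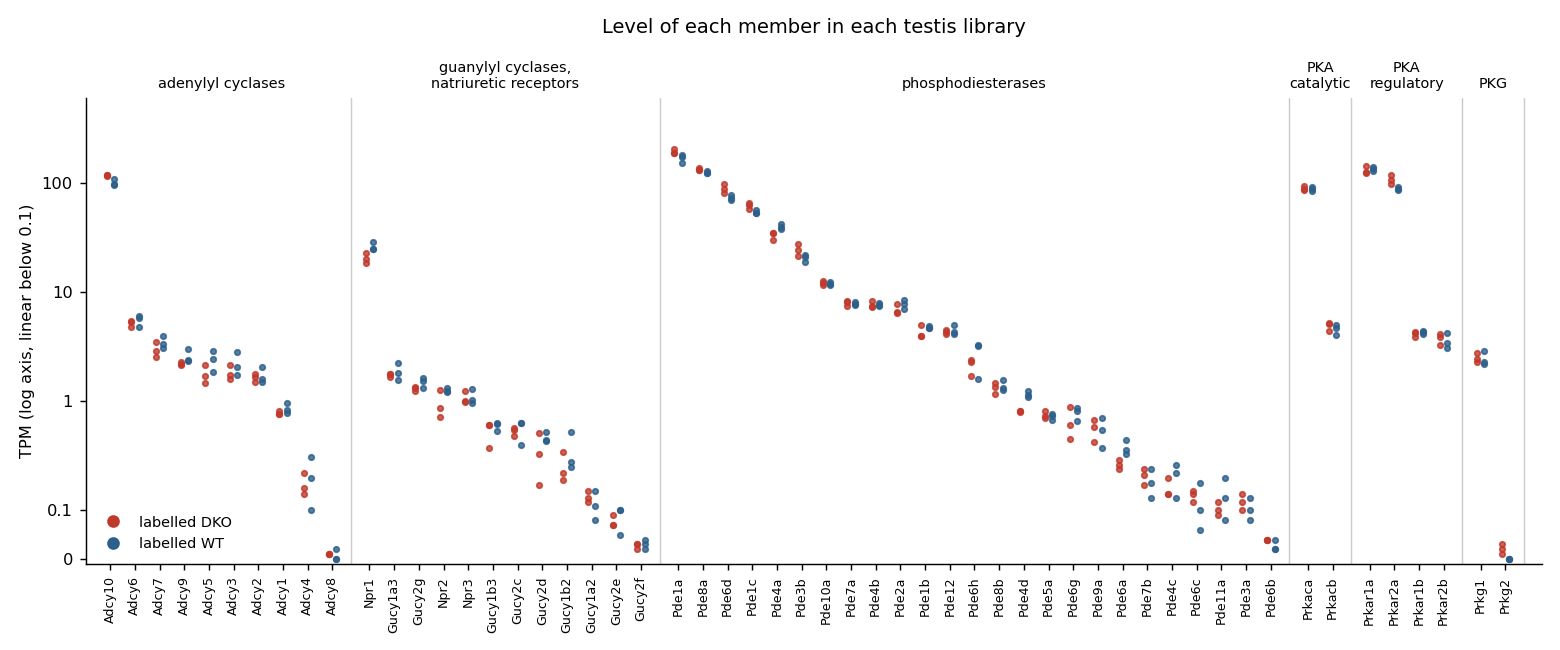
Deposited TPM of each of the 55 members (horizontal axis, grouped by role and ordered by mean) in each library labelled DKO (red points) and labelled WT (blue points), on a vertical axis that is logarithmic above 0.1 TPM and linear below it. In each role with more than 2 genes the level spans from under 1 or a few TPM to over 20 TPM, and for most genes the points of both groups lie together.

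Promoter sequences were read for the 44 members found in the RefSeq promoter table of GRCm38.p6, which holds 250 bases before to 50 bases after each listed start. The cAMP response element is the site of CREB and CREM, transcription factors that PKA phosphorylates, and its full form was searched as TGACGTCA, which reads the same on both strands. It was found in 1 of the 44 members (2.27%), Prkar1a, against 2.03% of all 27025 genes in the table and 2.54% of its 17492 coding genes. The shorter motif TGACG, searched on both strands and contained in the full one, was found in 18 of the 44 members (40.9%) against 23.0% of all genes and 26.2% of coding genes. Members had more listed starts per gene, and by window the shares were 23.8% of 84 member windows against 20.8% of all 32851 windows and 23.6% of those of coding genes. GGGCGG, the GC box bound by Sp1, was found on either strand in 42.9% of member windows, 35.7% of all windows and 46.2% of coding windows. A match describes letters and shows no binding. The windows below belong to Prkar1a, the 1 member with the full element, to Prkar2a and Npr1, which differed between the groups, and to Adcy10, the leading cyclase of sperm. Each is 1 of the listed starts, written 5′ to 3′ on the gene's strand, and capitals mark TGACG or its complement CGTCA and GGGCGG or its complement CCGCCC.
Prkar1a, chr11:109650699-109650998, plus strand: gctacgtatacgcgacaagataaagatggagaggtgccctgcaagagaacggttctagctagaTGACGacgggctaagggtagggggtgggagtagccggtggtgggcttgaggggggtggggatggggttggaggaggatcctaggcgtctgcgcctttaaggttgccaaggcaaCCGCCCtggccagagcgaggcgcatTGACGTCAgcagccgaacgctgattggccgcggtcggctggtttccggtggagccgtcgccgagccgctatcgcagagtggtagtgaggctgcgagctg
Prkar2a, chr9:108691893-108692192, plus strand: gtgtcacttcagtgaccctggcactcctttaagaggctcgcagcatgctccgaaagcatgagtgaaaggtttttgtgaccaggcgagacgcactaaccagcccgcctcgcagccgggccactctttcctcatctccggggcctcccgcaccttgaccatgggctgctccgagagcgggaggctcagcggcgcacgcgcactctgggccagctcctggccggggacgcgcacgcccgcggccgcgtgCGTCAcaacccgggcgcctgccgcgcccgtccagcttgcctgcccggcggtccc
Npr1, chr3:90465817-90466116, minus strand: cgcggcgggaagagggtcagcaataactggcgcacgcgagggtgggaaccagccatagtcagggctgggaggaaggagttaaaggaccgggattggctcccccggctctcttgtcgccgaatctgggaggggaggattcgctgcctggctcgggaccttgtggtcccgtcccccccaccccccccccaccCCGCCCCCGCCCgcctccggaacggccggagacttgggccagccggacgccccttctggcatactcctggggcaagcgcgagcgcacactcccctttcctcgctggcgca
Adcy10, chr1:165484933-165485232, plus strand: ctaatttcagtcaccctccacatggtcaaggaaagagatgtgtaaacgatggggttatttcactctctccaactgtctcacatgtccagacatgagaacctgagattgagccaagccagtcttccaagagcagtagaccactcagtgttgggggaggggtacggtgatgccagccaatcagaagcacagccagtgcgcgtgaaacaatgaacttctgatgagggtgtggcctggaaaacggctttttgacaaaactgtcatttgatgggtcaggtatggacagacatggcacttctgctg
The Prkar1a window holds the full element from its base 202, the Prkar2a window holds 1 copy of the shorter motif, the Npr1 window holds 2 GC boxes, and the Adcy10 window holds none of these motifs. Pde1c, Pde4d and Pde6d also differed between the groups. Their listed windows, which are not printed, hold none of these motifs either.

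Differences between the labelled genotypes were small and went both ways. Counts are compared below as TMM-normalised CPM, which is corrected for depth but not for transcript length. After a filter on low counts 49 of the 55 members were tested, and 25 had a log2 fold change above 0 and 24 below 0. Their median was 0.0017, against -0.0042 over all genes tested, and single values ran from -0.54 (Pde6h) to 0.35 (Prkar2a). Of the 49, 5 (10.2%) passed an adjusted p under 0.05 in edgeR, against 10.8% of all genes tested, so the members were called about as often as genes at large. Pde1c, Pde6d and Prkar2a were higher and Npr1 and Pde4d lower in libraries labelled DKO. The CPM of 12 members (24.5%) did not overlap between the groups, against 35.9% of all genes tested.

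The number of calls depended on single libraries and on the model. No member passed in edgeR without replicate 1 labelled DKO (0.0643% of all genes did, and 6 members had an unadjusted p under 0.05), without replicate 2 labelled DKO (3.83%, and 7 members), without replicate 2 labelled WT (0.0747%, and 7 members) or without replicate 3 labelled WT (0.0402%, and 7 members). In those fits, in the same order, 3571 of 17097, 4783 of 17116, 3793 of 17403 and 4326 of 17431 genes were under 0.05 unadjusted. The members tested in them were 49, 49, 50 and 50. Without replicate 3 labelled DKO 7 members were called, against 17.7% of all genes, and without replicate 1 labelled WT 4 were, against 11.7%. With the mean fragment length of each library as a covariate in edgeR, 0 of 49 members and 0.00584% of all genes passed. In that fit 1 member and 545 of 17110 genes had an unadjusted p under 0.05. Without the covariate 10 members and 31.7% of all genes did. With limma on log2(TPM + 1), 0 members and 4.3% of all genes passed. An unadjusted p under 0.05 was found there for 9 members and for 4893 of 17110 genes. With limma on log2(TPM + 0.1), 0 members and 5.53% of all genes passed, with 9 members and 4901 of 17110 genes under 0.05 unadjusted. An offset from the effective lengths left 4 members called, against 9.71% of all genes. DESeq2 called 7, the same 5 with Adcy10 and Pde3b, against 16% of all genes. In edgeR 0 members and 0.0409% of all genes passed an adjusted p under 0.01, and 7 members and 23.4% of all genes passed one under 0.1.

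**Figure D2:**
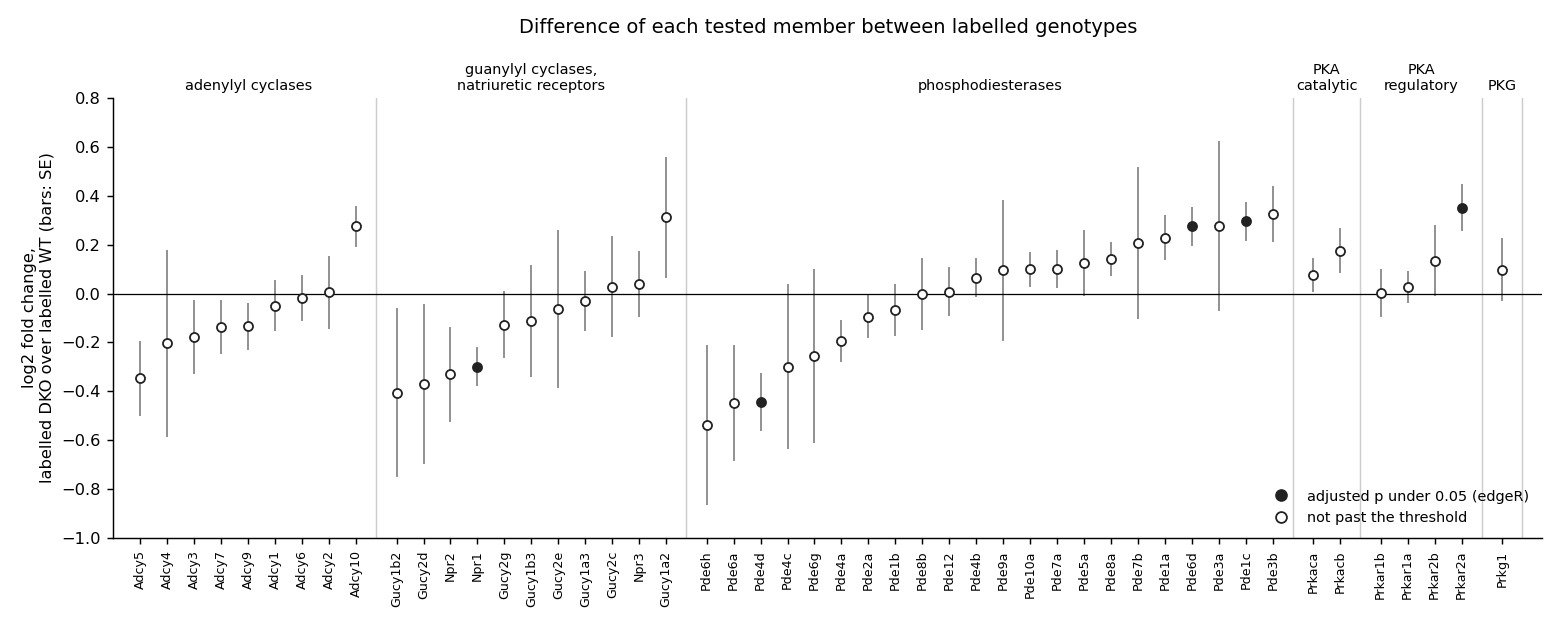
log2 fold change, labelled DKO over labelled WT, with its standard error (bars) for the 49 tested members, grouped by role and ordered by value. Filled points passed an edgeR adjusted p under 0.05: Npr1 and Pde4d lie below 0, and Pde6d, Pde1c and Prkar2a above it.

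None of the 9 tested adenylyl cyclases passed the threshold, and 7 of them had a log2 fold change below 0 (median -0.13). Adcy10 (chromosome 1, 165483518 to 165576778 in GRCm38.p6) had 414, 411 and 390 CPM in the libraries labelled DKO and 377, 310 and 318 CPM in those labelled WT. The groups did not overlap, but the gap of 390 to 377 was narrower than the SD within the WT-labelled group (405 ± 13.3 against 335 ± 36.5, SD, n = 3 each). Its log2 fold change was 0.27 (SE 0.0844), just outside the threshold in edgeR (adjusted p = 0.0558; 0.0233 with DESeq2; range over the 10 alternatives with all libraries 0.0233 to 0.999). In TPM, Adcy10 was at 119, 115 and 118 in libraries labelled DKO and 110, 98.7 and 96.2 in those labelled WT.

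The membrane adenylyl cyclases were far less abundant than Adcy10. Adcy6, which is inhibited by calcium, had 19.5, 22.9 and 20.7 CPM in libraries labelled DKO and 19.3, 22.3 and 22.3 CPM in those labelled WT, and these ranges overlapped almost fully (log2 fold change -0.02, SE 0.0935; edgeR adjusted p = 0.910). Adcy7 had 11.8, 10.5 and 13.3 CPM against 12.1, 14.3 and 12.8 CPM (log2 fold change -0.14, SE 0.110; edgeR adjusted p = 0.422), again with overlap. Adcy1, Adcy2, Adcy3, Adcy4, Adcy5 and Adcy9 also overlapped between the groups. Since Adcy10 lay higher and most membrane forms lay slightly lower, the share of Adcy10 in adenylyl cyclase TPM was 88.4%, 87.6% and 86.7% in libraries labelled DKO and 87.0%, 82.0% and 83.5% in those labelled WT. These shares overlap, with means of 87.6% ± 0.886 and 84.2% ± 2.57 (SD, n = 3 each).

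Among guanylyl cyclases and natriuretic peptide receptors, 1 of 11 tested genes passed the threshold and 8 had a log2 fold change below 0 (median -0.11). Npr1 (chromosome 3, 90450591 to 90465928) had 49.5, 54.9 and 57.8 CPM in libraries labelled DKO and 65.8, 70.3 and 63.6 CPM in those labelled WT. Every library labelled DKO was below every library labelled WT, and the mean fell by 18.7% (log2 fold change -0.30, SE 0.0791; edgeR adjusted p = 0.0395). Npr1 passed under 7 of the 10 alternatives that kept all libraries and in 2 of the 6 fits that left 1 out. GENCODE M21 places the gene Gm16048 over Npr1 on the opposite strand. The expected counts of Npr1 were whole in all 6 libraries. Without a stated strand setting it is not known whether reads of Gm16048 were counted as Npr1.

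The remaining guanylyl cyclases were at low levels. Gucy1a3, a subunit of the nitric oxide-activated soluble guanylyl cyclase, had 5.45, 5.32 and 5.24 CPM in libraries labelled DKO and 4.78, 6.21 and 5.30 CPM in those labelled WT (log2 fold change -0.03, SE 0.123; edgeR adjusted p = 0.889). Gucy2g, a receptor-type guanylyl cyclase, had 3.19, 3.43 and 3.29 CPM against 3.91, 3.73 and 3.20 CPM (log2 fold change -0.13, SE 0.136; edgeR adjusted p = 0.554). For both genes the ranges overlapped. The summed TPM of this role was 25.2, 26.3 and 30.6 in libraries labelled DKO and 32.3, 38.0 and 32.4 in those labelled WT, with Npr1 the larger part of each sum.

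Of 22 tested genes with a phosphodiesterase symbol, 3 passed the threshold (2 higher and 1 lower), and 13 had a log2 fold change above 0 (median 0.08). Pde1c (chromosome 6, 56069798 to 56652510) had 254, 230 and 222 CPM in libraries labelled DKO and 196, 177 and 201 CPM in those labelled WT. The groups did not overlap, and the mean was 22.8% higher (log2 fold change 0.30, SE 0.0797; edgeR adjusted p = 0.0408). Pde1c was the least steady of the 5 calls across settings: it passed under 5 of the 10 alternatives with all libraries and in 1 of the 6 fits with 1 left out, and it lost the call with an offset from the effective lengths. Pde6d (chromosome 1, 86543012 to 86582785) encodes a small protein that carries prenylated proteins to cilia and was first described as a subunit of the photoreceptor enzyme. It had 54.3, 47.7 and 48.8 CPM in libraries labelled DKO and 40.4, 40.0 and 44.2 CPM in those labelled WT, again without overlap (log2 fold change 0.27, SE 0.0784; edgeR adjusted p = 0.0476).

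Pde4d, a cAMP-specific phosphodiesterase (chromosome 13, 108654177 to 109955969), was the lower one. It had 3.89, 3.88 and 3.74 CPM in libraries labelled DKO and 5.12, 4.86 and 5.69 CPM in those labelled WT. The DKO-labelled values lay close together and wholly below the others, and the mean fell by 26.5% (log2 fold change -0.44, SE 0.120; edgeR adjusted p = 0.0407). At 0.79 to 1.25 TPM, measured on the 1 transcript annotated for it, Pde4d was a minor part of the phosphodiesterase transcript. The other cAMP-specific members of the same family did not pass: for Pde4a the log2 fold change was -0.20 with an SE of 0.0856 (edgeR adjusted p = 0.142), and Pde4b and Pde4c had 0.06 and -0.30.

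The leading phosphodiesterases by level, Pde1a and Pde8a, did not pass the threshold. Pde1a had 194, 186 and 172 CPM in libraries labelled DKO and 174, 137 and 161 CPM in those labelled WT, with replicate 1 labelled WT inside the range of the other group (log2 fold change 0.23, SE 0.0921; edgeR adjusted p = 0.115). Pde8a had 232, 228 and 213 CPM against 208, 199 and 203 CPM, without overlap but with a smaller difference (log2 fold change 0.14, SE 0.0684; edgeR adjusted p = 0.178). Pde3b, a cAMP phosphodiesterase inhibited by cGMP, was not called either, at 0.32 on the log2 scale (edgeR adjusted p = 0.0827), and its groups overlapped. It was -0.19 with the fragment-length covariate. Across the role, which includes Pde6d and Pde12, the summed TPM was 613, 569 and 579 in libraries labelled DKO. It was 541, 522 and 544 in those labelled WT, with no overlap. Among the 12 members of at least 10 TPM, 10 had a log2 fold change above 0 and 4 were called, while Npr1 and Pde4a lay below 0. Over all genes tested, of any level, 8440 of 17110 were above 0 and 10.8% were called. With only genes of a mean count of at least 50 kept, 14% were called. The shares among all genes of at least 10 TPM were not taken, so the counts of these 12 members are a description.

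**Figure D3:**
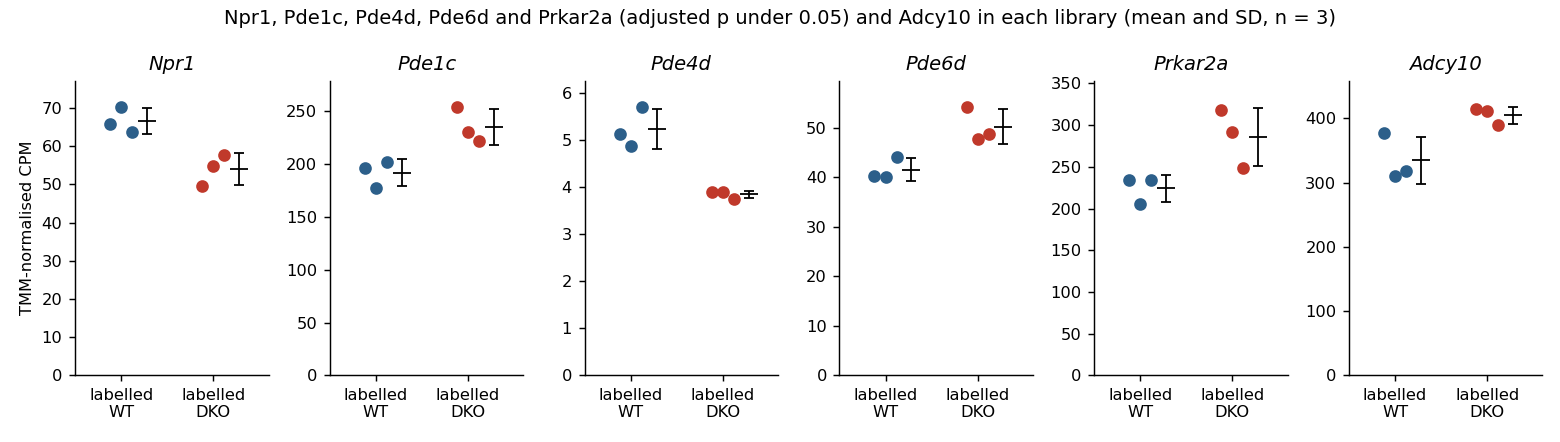
TMM-normalised CPM (vertical axes, from 0, 1 scale per gene) of Npr1, Pde1c, Pde4d, Pde6d, Prkar2a and Adcy10 in each library labelled WT (blue) and labelled DKO (red), with the mean and SD of 3 libraries beside each group. In all 6 panels the groups do not overlap; for Prkar2a the lowest library labelled DKO (249 CPM) lies close to the highest labelled WT (234 CPM).

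Neither catalytic subunit of PKA passed the threshold. Prkaca had 120, 124 and 126 CPM in libraries labelled DKO and 116, 112 and 123 CPM in those labelled WT, with overlap (log2 fold change 0.08, SE 0.0682; edgeR adjusted p = 0.477). Prkacb had 14.9, 13.0 and 13.9 CPM against 11.5, 12.8 and 12.7 CPM (log2 fold change 0.18, SE 0.0931; edgeR adjusted p = 0.219), where the nearest values of the groups were 13.0 and 12.8. With 3 libraries a group, differences of this size were within or near the spread between libraries.

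Of the 4 regulatory subunits, which hold the kinase inactive until cAMP binds, 1 passed the threshold. Prkar2a, the type II alpha subunit that anchoring proteins hold in the sperm tail (chromosome 9, 108692143 to 108750444), had 318, 292 and 249 CPM in libraries labelled DKO and 234, 205 and 234 CPM in those labelled WT. Replicate 1 labelled DKO was highest, the groups did not overlap, and the mean was 27.6% higher (log2 fold change 0.35, SE 0.0954; edgeR adjusted p = 0.0417). This was the highest log2 fold change of any tested member, and it was -0.02 with fragment length as a covariate. Prkar1a, the type I alpha subunit (chromosome 11, 109649023 to 109669663), was the most abundant subunit and had 268, 279 and 292 CPM against 274, 271 and 278 CPM. These values overlapped (edgeR adjusted p = 0.818; log2 fold change 0.03, SE 0.0673).

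The beta forms were at low levels and their groups overlapped. Prkar1b had 6.94, 6.63 and 6.78 CPM in libraries labelled DKO and 7.13, 6.62 and 6.59 CPM in those labelled WT (edgeR adjusted p = 0.994), and Prkar2b lay at 0.13 on the log2 scale (edgeR adjusted p = 0.552). Of the summed regulatory-subunit TPM, Prkar2a made up 47.3%, 44.4% and 39.6% in libraries labelled DKO and 39.5%, 36.8% and 39.1% in those labelled WT. Prkar1a made up 49.4%, 52.4% and 57.4% against 57.2%, 59.8% and 57.4%. The lowest Prkar2a share labelled DKO and the highest labelled WT were nearly equal.

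Prkg1, the main cGMP-dependent kinase of smooth muscle, had 11.6, 11.0 and 12.3 CPM in libraries labelled DKO and 13.5, 9.55 and 9.72 CPM in those labelled WT, with overlap (log2 fold change 0.10, SE 0.129; edgeR adjusted p = 0.640). Prkg2 had 2, 1 and 7 counts in libraries labelled DKO and 0, 0 and 0 in the shallower libraries labelled WT, where a count of 0 allows up to 3 counts. Prkg2 was left out of the main fit by the filter on low counts, and it was not called in the edgeR fit without that filter. Counts this low do not show whether the groups differ.

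The other members not tested were also at the limit of detection. Adcy8 had 0 to 3 counts a library, Pde6b 1 to 5 and Gucy2f 3 to 14. Pde6c had 3 to 15 and Pde11a 4 to 11. Precision fell with level among the tested members: the median coefficient of variation within a group was 6.77% for the 12 members of at least 10 TPM and 24.5% for the 16 under 1 TPM, of which 1, Pde4d, was called. Of the 6 libraries, replicate 1 labelled DKO held the highest CPM for 14 of 49 tested members and replicate 2 labelled WT for 12, and these were also the libraries with the longest (317 bases) and shortest (230 bases) mean fragments. The same libraries were highest for 27.9% and 23.5% of all genes tested.

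Fragment length differed between the groups, and as a covariate it moved most of these values. In that fit the log2 fold changes were -0.06 for Npr1, 0.05 for Pde1c, 0.11 for Pde6d, -0.02 for Prkar2a and 0.07 for Adcy10, and -0.53 for Pde4d. The Pde4d value was as large as without the covariate, although it did not pass (edgeR adjusted p = 0.999). Because fragment length and genotype do not overlap, their parts in these differences, that of Pde4d included, cannot be told apart.

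Some markers of testis cell types also passed the edgeR threshold, which 10.8% of all genes tested passed. Of 8 Leydig cell markers 3 fell (Star, Hsd3b6 and Insl3). The summed level of the 8 was 864 to 1521 TPM in libraries labelled DKO and 1500 to 3146 TPM in those labelled WT. Insl3 made up most of it, with 884 of 1205 TPM on average for DKO labels and 1764 of 2205 TPM for WT labels. It was called under 5 of the 10 alternatives with all libraries. The other 5 markers did not pass, and 1 of them, Hsd3b1, lay above 0 (log2 fold change 0.21). Of 10 Sertoli cell markers 3 fell and 1 rose, with sums of 1388 to 1733 TPM against 1813 to 2314 TPM. Clu (813 against 968 TPM on average, not called) and Defb19 (558 against 877 TPM) made up most of these sums. Of 7 spermatocyte markers 2 rose (Sycp3 and Hormad1), with sums of 700 to 918 TPM against 605 to 652 TPM. Of 5 markers of peritubular myoid and smooth muscle cells 1 fell, with sums of 64.3 to 75.2 TPM against 75.4 to 111 TPM. Spermatid markers gave 1 higher of 8, Akap4, which is counted again below among the anchoring proteins. None of the 6 tested markers of spermatogonia, 6 of macrophages or 4 of endothelial cells passed. No marker of the Leydig, Sertoli, spermatocyte or spermatid lists was at 0 in any library. With the fragment-length covariate none of these markers passed, and Hormad1, called under 3 of the 10 alternatives with all libraries, went from 0.54 to -0.23 on the log2 scale. The other called markers kept their direction in that fit, and all but Star were smaller in size. Star went from -0.79 to -1.17, Insl3 from -1.12 to -0.59, Hsd3b6 from -1.09 to -0.17 and Sycp3 from 0.67 to 0.16. The part of these markers in the lower Npr1 and Pde4d and the higher Pde1c, Pde6d and Prkar2a was not tested.

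The mix of transcripts from each gene was read from the deposited length, an average over a gene's transcripts weighted by their estimated abundance. It was compared for 17 members with more than 1 transcript and at least 50 counts in every library. The largest difference was 2.05%, for Pde1c, whose lengths overlapped between the groups. Only for Prkacb did the lengths not overlap, with means of 4324 (SD 1.17) and 4327 (SD 0.844) bases for DKO and WT labels. Its p by a two-sided exact permutation test was 0.1, which is as small as 3 against 3 can give (0.85 adjusted over the 17 members). No member changed its mean transcript length by 5% or more.

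Genes that act with the members were read from a list of 69, of which 67 were in the files and 59 were tested. In edgeR 11 of the 59 passed (18.6%), 7 higher and 4 lower, against 10.8% of all genes tested, and the median log2 fold change was -0.04. The list was drawn up with earlier results of these data known, so its share is a description. The count fell to 0 without replicate 1 labelled DKO, without replicate 2 labelled WT, without replicate 3 labelled WT, or with the fragment-length covariate, and to 5 without replicate 2 labelled DKO. Abcc5, described above, was 1 of the 11.

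A-kinase anchoring proteins, which place PKA at particular sites in the cell, were listed together with Ropn1, Ropn1l and Cabyr. This list gave 3 of 21 called, all higher. Akap3 and Akap4 are the main proteins of the fibrous sheath of the sperm tail. Akap3 had 1812, 1618 and 1392 CPM in libraries labelled DKO and 1305, 999 and 1063 CPM in those labelled WT, without overlap (log2 fold change 0.52, SE 0.116; edgeR adjusted p = 0.0299). Akap4 had 2534, 2411 and 2308 CPM against 2064, 1722 and 1906 CPM (log2 fold change 0.35, SE 0.0836; edgeR adjusted p = 0.0341). Akap11 was the third, at 0.30. Slc9c1, the sperm-specific sodium/proton exchanger that forms a complex with Adcy10, had 192, 175 and 151 CPM in libraries labelled DKO and 132, 112 and 139 CPM in those labelled WT (log2 fold change 0.44, SE 0.103; edgeR adjusted p = 0.0333). All 4 were higher in each library labelled DKO than in any labelled WT, and with the fragment-length covariate the log2 fold changes of Akap3, Akap4 and Slc9c1 were 0.02, 0.11 and 0.04.

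Of the 5 G protein alpha subunits tested, 3 passed. Gnas, the subunit that activates membrane adenylyl cyclases, had 76.5, 82.0 and 74.3 CPM in libraries labelled DKO and 92.4, 123 and 113 CPM in those labelled WT (log2 fold change -0.50, SE 0.0991; edgeR adjusted p = 0.0259). Gnai2, an inhibitory subunit, had 61.8, 70.3 and 65.8 CPM against 89.6, 98.4 and 96.1 CPM (log2 fold change -0.52, SE 0.0748; edgeR adjusted p = 0.0206). Gnai3, another inhibitory subunit, went the other way, with 62.1, 56.9 and 56.0 CPM against 46.9, 44.6 and 46.9 CPM (log2 fold change 0.34, SE 0.0715; edgeR adjusted p = 0.0271). None of the 3 overlapped between the groups, which was also so for 39.0% of the tested partner genes and 35.9% of all genes tested. With the fragment-length covariate the log2 fold changes of Gnas, Gnai2 and Gnai3 were -0.29, -0.35 and 0.17, and none passed. Gnas lies over Nespas and Gm20721 in GENCODE M21. Its expected counts were whole in all 6 libraries, but whether reads of those genes were counted as Gnas is not known.

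Among 8 transcription factors and coactivators that respond to cAMP, 2 were called, both lower: the CREB coactivators Crtc1 and Crtc3. Crtc1 had 14.0, 18.0 and 15.9 CPM in libraries labelled DKO and 20.7, 21.2 and 21.3 CPM in those labelled WT, without overlap (log2 fold change -0.40, SE 0.0993; edgeR adjusted p = 0.0358). Crtc3 had a log2 fold change of -0.32 (edgeR adjusted p = 0.0401). With the fragment-length covariate Crtc1 and Crtc3 were each at -0.19, and neither passed. Of 9 tested channels and exchangers that bind cyclic nucleotides, Cngb3 was called beside Slc9c1, at 0.65 (edgeR adjusted p = 0.0373). With the fragment-length covariate Cngb3 changed sign, to -0.10. None of the 3 PKA inhibitors, 4 exchange factors and Popeye proteins, 2 gonadotropin receptors, or 5 nitric oxide synthases and guanylyl cyclase activators passed.

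**Figure D4:**
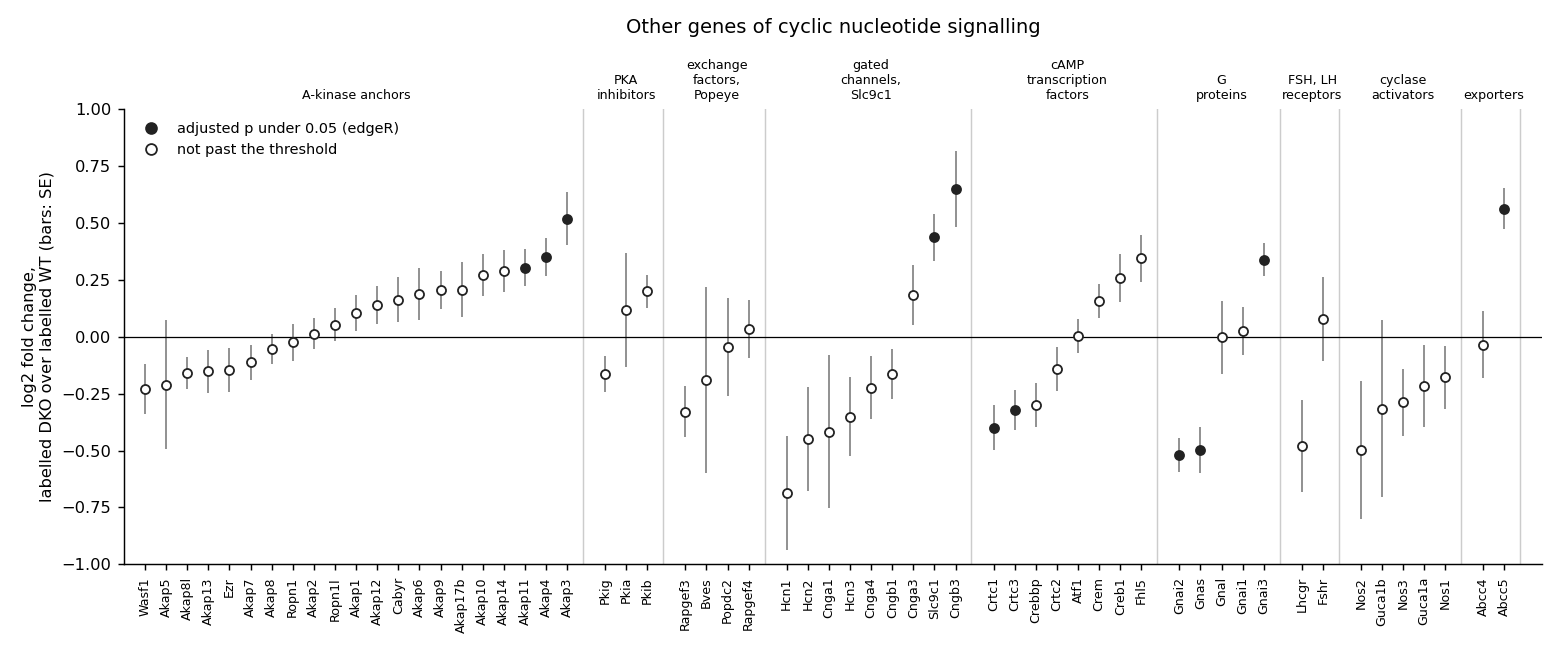
log2 fold change, labelled DKO over labelled WT, with its standard error (bars) for the 59 tested partner genes, grouped by function and ordered by value. Of the 11 filled points, which passed an edgeR adjusted p under 0.05, 7 lie above 0 (among them Akap3, Akap4, Slc9c1 and Gnai3) and 4 below it (Gnai2, Gnas, Crtc1 and Crtc3).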

How the data were processed

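Libraries were assigned to groups by their genotype label; replicate numbers only name libraries. The authors aligned reads with STAR 2.7.0f to mm10 and quantified genes with RSEM 1.2.31, per the submitters' processing notes, which also list DESeq2 1.12.3. The annotation release and strand handling are not given in the sources used here. Per the file headers, each gene has a length, an effective length, TPM, FPKM and an expected count. The expected counts deposited by the authors were whole in 93.2% of cells. The TPM and FPKM deposited by the authors are scaled for length and depth, and FPKM served only as an alternative for levels.

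Expected counts were rounded. The filterByExpr function of edgeR 4.0.16 (R 4.3.3) kept 17110 genes, libraries were scaled by TMM, and groups were compared with the quasi-likelihood test over all 6 libraries. P-values were adjusted over all tested genes by the Benjamini-Hochberg method and called under 0.05. The SE is the log2 fold change divided by the square root of F. Fragment length was recovered from the gap between each gene's length and effective length, as a median over genes of more than 3000 bases. The script was tested on simulated counts.

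Alternatives used DESeq2 1.42.0, limma 3.58.1 on log2(TPM + 1) and log2(TPM + 0.1), other scalings, filters and thresholds, effective-length offsets, a length trend removed with mgcv 1.9.3, fragment length as a covariate, thinning to the smallest total, and leaving out each library. Genes named with values are both targeted genes, Adcy10, every called member, the 3 members of highest mean TPM in each role, and the 8 called partner genes of smallest p. Other genes given by name were chosen after their values were seen. Members and lists were chosen with earlier results of these data known. Gene positions and promoters are from RefSeq, GRCm38.p6, the build that mm10 names. Intervals of a count of 0 cover counting error only.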

Additional observations from a re-analysis of the deposited data

How the results depend on the processing

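No paired analysis was possible because the labels give no number that the groups share. The numbers 1 to 3 were assigned in order of deposit within each group and pair nothing. Of 17110 genes, 1856 were called; 735 and 947 were called by limma with pseudocounts of 1 and 0.1, 1 with the fragment-length covariate, 7 at an adjusted p under 0.01, and 7 to 3029 with 1 library left out. The 5 called members became 0 under each of those limma fits, the covariate and the stricter threshold, and 0 to 7 with 1 library left out. They were the same 5 with DESeq2 size factors, a mean count of at least 50, or thinning. The 11 partner genes became 4 and 5 with limma, 0 with the covariate, and 0 to 16 with 1 library left out. The members' median log2 fold change of 0.0017 was -0.0519 with limma at a pseudocount of 0.1, 0.0407 with the covariate, and -0.0429 to 0.0333 with 1 library left out. Abcc5, at 0.56, did not pass at 0.27 and 0.33 with limma or 0.64 with the covariate, and ranged from 0.49 to 0.61 with 1 library left out, passing in 3 of those 6 fits. Abcc12 passed under all of these alternatives.

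Some log2 fold changes changed sign. With the covariate, among the genes named by rule, these were Prkar2a (-0.0237), Pde1a (-0.0824), Prkar1b (-0.0816), Prkg1 (-0.0805), Adcy6 (0.18), Adcy7 (0.0816) and Gucy1a3 (0.10); of the others given by value, Pde3b (-0.19), Prkar2b (-0.20), Pde4c (0.24), Cngb3 (-0.10) and Hormad1 (-0.23) also did. Adcy6 was 0.0101 after thinning and -0.10 to 0.0159 with 1 library left out, and Gucy1a3 was -0.13 to 0.0719 with 1 left out. Prkar1a was -0.0361 and -0.0364 with limma and -0.0060 to 0.0431 with 1 left out. Prkar1b, near 0 throughout, was -0.0019 with DESeq2 size factors, -0.0018 with DESeq2, -0.0070 at a mean count of at least 50, -0.0439 and -0.0532 with limma, -0.0082 with the effective-length offset, and -0.0281 to 0.0214 with 1 left out. The cause of these changes was not tested. Over 24 named genes and 16 settings, 281 of 384 values kept their direction and side of the threshold, 75 kept direction but no longer passed, 4 newly passed and 24 changed sign. Low counts limit what can be said of the 22 members under 1 TPM.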
